A study of Hakea laurina with 6 samples.

Results

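The potassium, iron and zinc uptake contigs described here are 7 of the 183999 in the count table of *Hakea laurina*, a shrub of the Proteaceae from south-western Australia. They are the contigs that the study singled out for potassium, iron and zinc uptake. Their closest Arabidopsis proteins are a potassium channel beta subunit (KAB1), the potassium transporter HAK5, the potassium channel AKT1, the iron-uptake regulator FIT1 (matched by 2 contigs), the ZRT/IRT-like protein ZIP2 and the metal transporter NRAMP2. RNA-Seq was performed on 3 libraries titled MCR (mature cluster roots, with fully elongated rootlets) and 3 titled TCR (tips of cluster-bearing lateral roots). All 6 came from plants kept in hydroponics without P except for 6.4 µM NaH2PO4 added once every few months, so both groups share the low-P treatment and no library of plants with ample P enters the comparison. Whether the 3 libraries of a root type came from separate plants is not stated, so the p-values below measure the spread between these libraries, which may be technical.

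The titles, which match the names used for these samples in the study, give the root types used here. In all 6 samples the deposited tissue label gives the opposite root type. If those labels were right, every direction below would be the opposite.

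The members were chosen by the study because they were higher in MCR in these same libraries. Their MCR and TCR values are therefore given as a description, without p-values, and nothing is inferred from the direction they share.

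Plants take up potassium through high-affinity carriers of the HAK/KUP/KT family and through channels such as AKT1. In Arabidopsis, HAK5 is the main carrier at low external potassium and AKT1 is an inward-rectifying channel of root epidermis and cortex. Dicot roots acquire iron by releasing protons, reducing ferric iron at the surface and importing the ferrous ion, and in Arabidopsis the transcription factor FIT, paired with bHLH38 or a close relative, switches on the genes for this. ZIP proteins move zinc, iron and manganese across membranes, and NRAMP proteins move manganese and iron. Cluster roots are dense brushes of short-lived rootlets known for releasing carboxylates that bring poorly soluble P and metals into solution.

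A contig is a transcript group of the authors' de novo Trinity assembly, named by read cluster (DN), component (c) and gene (g), with the prefix TRINITY shown here only where a member is first described. It carries only the name of its best match in Arabidopsis. In the TAIR10 annotation these matches are KAB1 (AT1G04690, chr1:1313662-1315420, forward strand, 328 residues), HAK5 (AT4G13420, chr4:7797038-7802174, reverse, 785 residues), AKT1 (AT2G26650, chr2:11331965-11336444, reverse, 857 residues), FIT1 (AT2G28160, chr2:12004713-12005908, forward, 318 residues), ZIP2 (AT5G59520, chr5:23991447-23992762, reverse, 353 residues) and NRAMP2 (AT1G47240, chr1:17309043-17311308, reverse, 530 residues). These are positions of the Arabidopsis genes and not of Hakea loci.

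The estimated counts summed to between 13583740 and 19119494 per library. The root libraries differed beyond their titles. Across the 49813 contigs tested, MCR3 had a Spearman correlation of 0.871 with TCR3 but only 0.626 with MCR1 and 0.515 with MCR2. Root tip markers followed the titles: the summed level of the 4 contigs of meristem genes lay between 60.5 and 152 CPM (reads scaled to a common library size) in TCR and between 10.7 and 31.4 in MCR, with 4 of 8 listed markers found. The 9 contigs of cell division genes summed to 242 to 407 CPM in TCR and 14.7 to 38.6 in MCR. Root hair and epidermis markers went the other way without passing the test, at 12.9 to 36.4 CPM in TCR and 38.004, 344 and 404 CPM in MCR1, MCR2 and MCR3 (3 contigs). Of 10 listed symbols 4 were found, but EXP7 and EXPA7 among them name the same gene. The 1 endodermis marker found, MYB36, rose in MCR (0.859, 0.490 and 1.52 CPM in TCR1 to TCR3 and 26.5, 13.7 and 14.4 CPM in MCR1 to MCR3). Xylem markers summed to 520.2 to 547 CPM in TCR and 65.1 to 151 CPM in MCR, and 2 of their 6 contigs fell. The part of these differences in tissue makeup in the results below was not tested, and in bulk RNA fewer cells of a type cannot be told apart from less RNA per cell.

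Contigs are said to rise or fall here where edgeR's quasi-likelihood test, fitted across all 49813 contigs, gave an adjusted p under 0.05 with a log2 fold change of at least 1 in size. Of all contigs tested 2.40% were called higher in MCR in this way, and 10.7% had every MCR library above every TCR library. The 7 members, which the fit includes, met both, an outcome that their choice on this contrast had already set, so their count is no result. Reads are not corrected for contig length, so levels are compared between libraries and not between contigs.

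**Figure D1:**
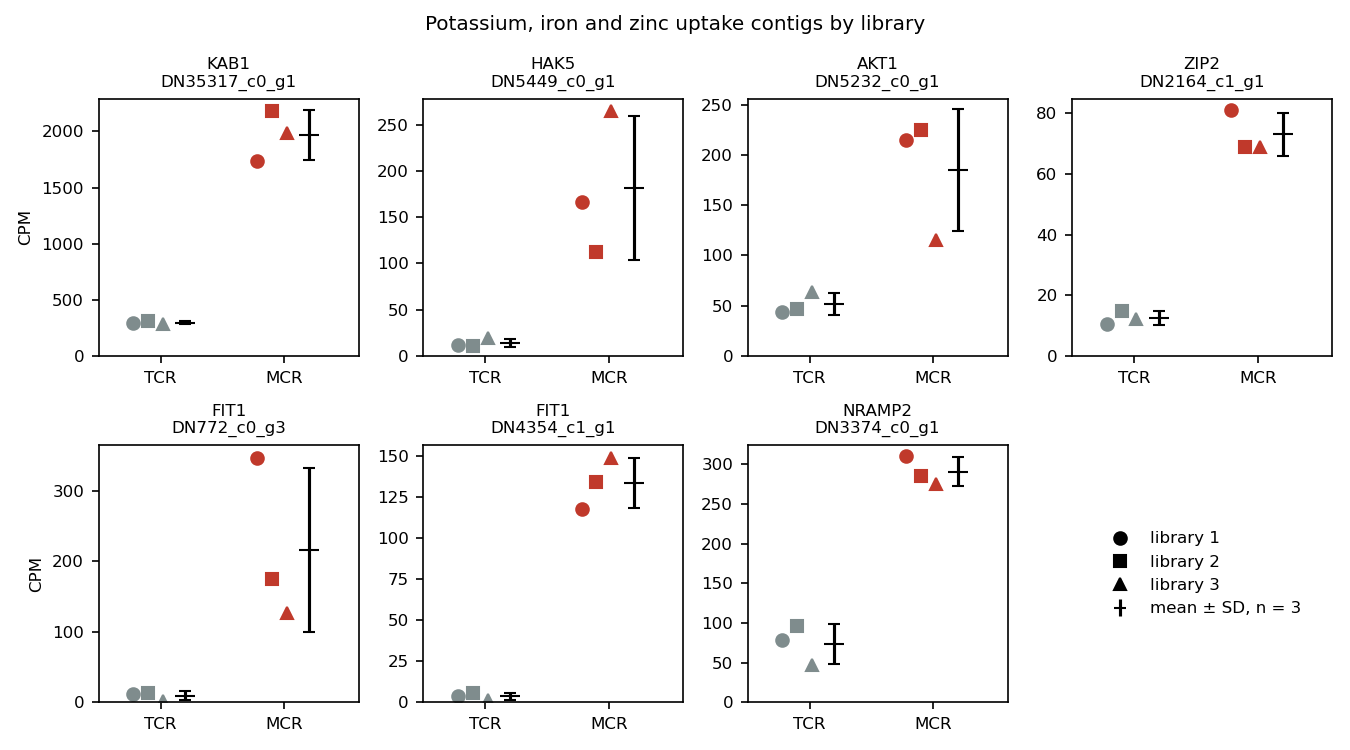
CPM (linear axes from 0, TMM-normalized) of the 7 uptake contigs in the 3 TCR libraries (grey) and 3 MCR libraries (red), with the mean and SD of each root type in black and the library number as the symbol. KAB1 and NRAMP2 had close MCR values, whereas MCR3 was the highest MCR library for HAK5 (265 CPM) and the lowest for AKT1 (115 CPM).

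Among the potassium contigs, KAB1 was the most even. The beta subunit is an auxiliary protein that associates with potassium channels and is not itself a pore. TRINITY_DN35317_c0_g1 was at 293, 312 and 283 CPM in TCR1, TCR2 and TCR3 and at 1737, 2183 and 1989.9 CPM in MCR1, MCR2 and MCR3. The MCR libraries differed by a coefficient of variation of 11.4% and the TCR libraries by 4.98%. The means were 296 ± 14.7 and 1969.9 ± 224 CPM (SD, n = 3), a ratio of 6.66, and the fitted log2 fold change was 2.73 ± 0.27 (SE).

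HAK5 varied more within MCR. TRINITY_DN5449_c0_g1 was at 11.7, 10.7 and 19.3 CPM in TCR1 to TCR3 and at 167, 112 and 265 CPM in MCR1 to MCR3. Libraries numbered 3 were the highest of both root types, at 1.73 times the mean of the other two in TCR and 1.90 times in MCR. The means were 13.9 ± 4.72 and 181 ± 77.6 CPM, a ratio of 13.0 (log2 fold change 3.70 ± 0.45), and within library numbers the ratio was 14.3, 10.4 and 13.7.

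AKT1 came closest to overlap. TRINITY_DN5232_c0_g1 was at 43.2, 46.9 and 63.9 CPM in TCR1 to TCR3 and at 215, 225 and 115 CPM in MCR1 to MCR3. MCR3 was at 0.524 times the mean of MCR1 and MCR2, while TCR3 was the highest TCR library, and the lowest MCR value exceeded the highest TCR value 1.80 times. The means were 51.3 ± 11.0 and 185 ± 60.6 CPM, a ratio of 3.60 (log2 fold change 1.85 ± 0.35). In MCR3, HAK5 and AKT1 thus stood on opposite sides of their MCR means, above for HAK5 and below for AKT1.

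Of the iron members, both contigs matching FIT1 had the largest ratios of the 7. TRINITY_DN772_c0_g3 was at 11.95, 13.7 and 1.80 CPM in TCR1 to TCR3 and at 347, 175 and 126 CPM in MCR1 to MCR3. TRINITY_DN4354_c1_g1 was at 4.15, 5.70 and 1.25 CPM in TCR and at 118, 134 and 149 CPM in MCR. TCR3 was the lowest library of both, at 0.140 and 0.254 times the mean of TCR1 and TCR2. In MCR the 2 contigs ran in opposite order, with MCR1 highest for DN772_c0_g3 and lowest for DN4354_c1_g1. DN772_c0_g3 averaged 9.16 ± 6.44 and 216 ± 116 CPM, a ratio of 23.6 (log2 fold change 4.56 ± 0.82). DN4354_c1_g1 averaged 3.70 ± 2.26 and 134 ± 15.4 CPM, a ratio of 36.1 (log2 fold change 5.17 ± 0.59), and its ratio was 28.4, 23.6 and 119 in the libraries numbered 1, 2 and 3. The last and largest value came from the low denominator in TCR3, which held 23 counts.

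The metal transporters had small spreads within MCR. ZIP2, TRINITY_DN2164_c1_g1, was at 10.4, 14.8 and 12.3 CPM in TCR1 to TCR3 and at 81.2, 68.9 and 69.0 CPM in MCR1 to MCR3. Its means were 12.5 ± 2.20 and 73.0 ± 7.06 CPM, a ratio of 5.85 (log2 fold change 2.55 ± 0.28). NRAMP2, TRINITY_DN3374_c0_g1, a metal transporter of internal membranes in Arabidopsis, was at 78.5, 95.7 and 46.8 CPM in TCR and at 311, 286 and 276 CPM in MCR. TCR3 was the lowest TCR library for NRAMP2, as for both FIT1 contigs, and its MCR values had the smallest coefficient of variation of the 7, at 6.21%. Its means were 73.7 ± 24.8 and 291 ± 18.0 CPM, a ratio of 3.95 (log2 fold change 1.98 ± 0.33).

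By fitted log2 fold change the members ordered as FIT1 (5.17 and 4.56), HAK5 (3.70), KAB1 (2.73), ZIP2 (2.55), NRAMP2 (1.98) and AKT1 (1.85). This order is a description, since the members were chosen on this contrast, and no gap between members was tested. Across the 6 libraries the log2 levels of all pairs of members correlated with a Pearson r between 0.845 and 0.993, as a description over 6 points that share their root types by choice of the members.

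**Figure D2:**
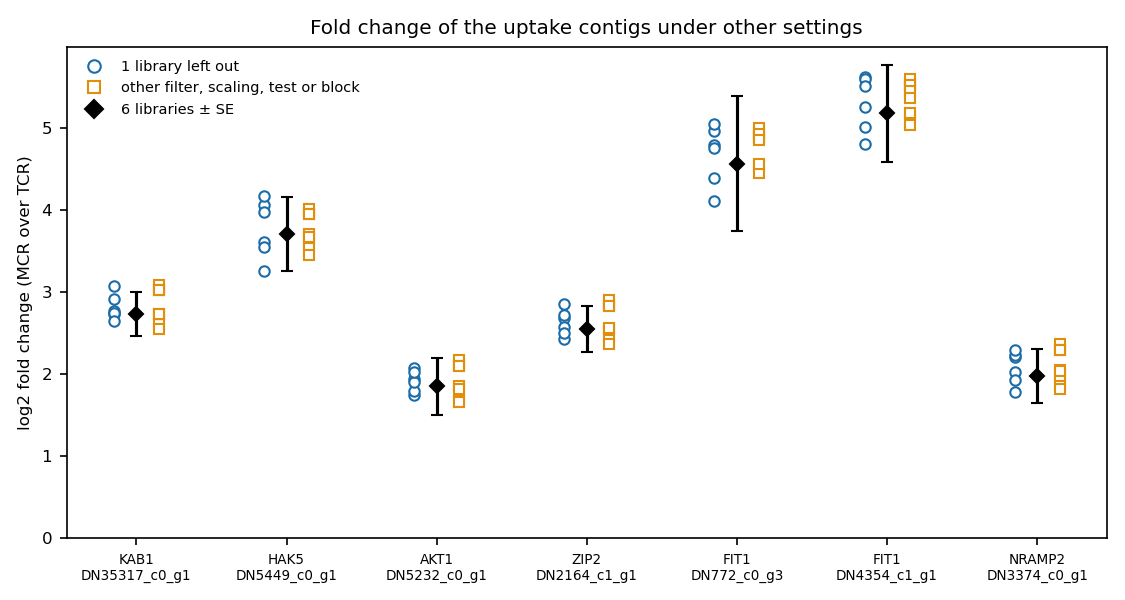
Fitted log2 fold change (MCR over TCR) of each uptake contig with 6 libraries (black, ± SE), with 1 library left out (blue circles) and under another filter, scaling, test or a replicate block (orange squares). The direction was set by the choice of the contigs, and the plot shows only how far each size moved, with AKT1 and NRAMP2 the lowest.

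Other contigs of the assembly matched the same Arabidopsis genes. These 8 were not among the contigs picked, although every named contig comes from a table that the authors had themselves selected on this contrast. 2 of the 8 rose in MCR, none fell, and 6 did not pass, against 10.2% of the 7819 annotated contigs called higher and 31.7% called lower. With the replicate block, which called 99.0% of the annotated contigs, those 6 passed as well, 4 higher and 2 lower in MCR, with adjusted p from 2.9e-09 (DN772_c0_g1) to 0.0301 (DN148805_c0_g1). The blocked fit took the spread mostly from all contigs together, with median prior degrees of freedom of 104.8 against 3.31 in the main fit. Its p-values thus say little about the spread of a single contig. DN12_c0_g2 passed it (adjusted p = 2.4e-06) with 5, 1926 and 0 counts in MCR1 to MCR3. Salmon can divide reads between near-identical sequences, and whether such contigs are gene copies, alleles or fragments is not known here.

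HAK5 was matched by a pair of further contigs with opposite patterns. DN5406_c0_g1 was at 1.50, 3.19 and 2.45 CPM in TCR1 to TCR3 and at 24.3, 14.8 and 45.7 CPM in MCR1 to MCR3. It rose by a log2 fold change of 3.56 ± 0.56 (edgeR adjusted p = 0.0125), and its MCR libraries followed the same order as the HAK5 member. It no longer passed without TCR1 or without TCR2, with an adjusted p of up to 0.0823. DN896_c0_g1 was at 65.5, 54.9 and 13.6 CPM in TCR and at 24.0, 9.04 and 4.62 CPM in MCR, so that MCR1 lay above TCR3. Its log2 fold change of -1.83 ± 0.76 did not pass (adjusted p = 0.185), but it did in the fit with a replicate block (adjusted p = 0.000267). In TCR1 and TCR2 most reads matched to HAK5 lay on DN896_c0_g1, with 83.3% (95% Wilson interval 80.9 to 85.3) and 79.8% (77.3 to 82.0), and in TCR3 38.5% (34.8 to 42.3). In MCR1 to MCR3 its share was 11.2%, 6.65% and 1.46%, whereas the member held 77.5%, 82.5% and 84.0%. Summed over the 3 contigs, HAK5 was at 78.7, 68.8 and 35.4 CPM in TCR and 215, 136 and 316 CPM in MCR, a smaller separation than that of the member alone. Wilson intervals cover counting error only.

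**Figure D3:**
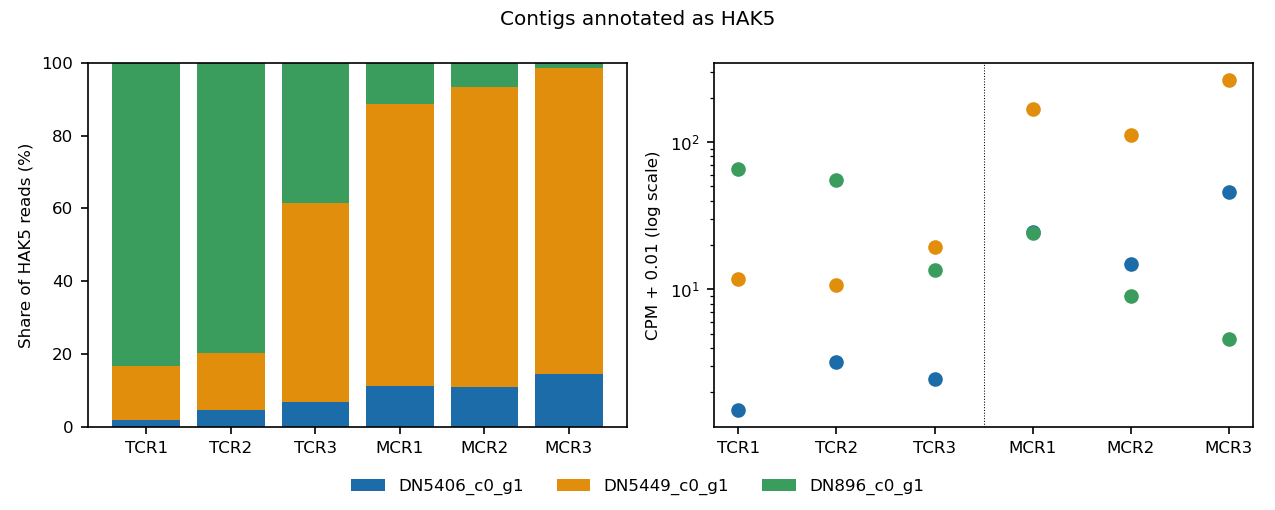
Left, share of the reads of the 3 HAK5 contigs (percent of their summed counts) in each library. Right, CPM of each contig with 0.01 added, on a log axis. The share of DN896_c0_g1 ran from 83.3% in TCR1 to 1.46% in MCR3, while DN5449_c0_g1 held 77.5% or more in the MCR libraries.

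AKT1 and KAB1 had low or uneven further contigs. AKT1 contig DN255535_c0_g1 was at 1.50, 1.16 and 2.18 CPM in TCR and at 0.0679, 0 and 0.122 CPM in MCR, a log2 fold change of -4.51 ± 1.14 that just missed the threshold (adjusted p = 0.0553). The other, DN12_c0_g2, was at 120.1 CPM in MCR2 and at 0.339 CPM or less in each other library (adjusted p = 0.123), and in MCR2 it took 34.8% (33.6 to 36.1) of the reads matched to AKT1. The KAB1 contigs DN46035_c0_g1 and DN148805_c0_g1 reached at most 1.56 and 2.58 CPM and had no read in MCR3 (adjusted p = 0.176 and 0.180). Nearly all reads matched to KAB1 thus lay on the member.

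The FIT1 component DN772_c0 held further contigs with the same match. DN772_c0_g2 had 0, 1 and 1 counts in TCR1 to TCR3 and 22, 332 and 639 in MCR1 to MCR3. It rose (log2 fold change 8.72 ± 1.47, adjusted p = 0.0157), and the ratio of its normalized counts was 512, with a counting interval of 141 to 4231. It did not pass without any 1 of the TCR libraries or with limma-voom, with an adjusted p of up to 0.267. DN772_c0_g1 had 2, 0 and 8 counts in TCR and 29, 96 and 491 in MCR (log2 fold change 5.95 ± 1.48, adjusted p = 0.0534), and passed with the replicate block. Both were highest in MCR3, where the member DN772_c0_g3 was lowest. Together g1 and g2 took 0.987% (0.752 to 1.30) of the component's reads in MCR1, 13.3% (12.1 to 14.5) in MCR2 and 35.2% (33.6 to 36.9) in MCR3. In TCR3 they took 21.4% of 42 counts (11.7 to 35.9), against 1.18% in TCR1 and 0.444% in TCR2. Over all 4 contigs matching FIT1 the summed level was 16.2, 19.5 and 3.54 CPM in TCR1 to TCR3 and 469, 336 and 344 CPM in MCR1 to MCR3, so MCR3 was no longer apart from MCR2 in the sum.

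**Figure D4:**
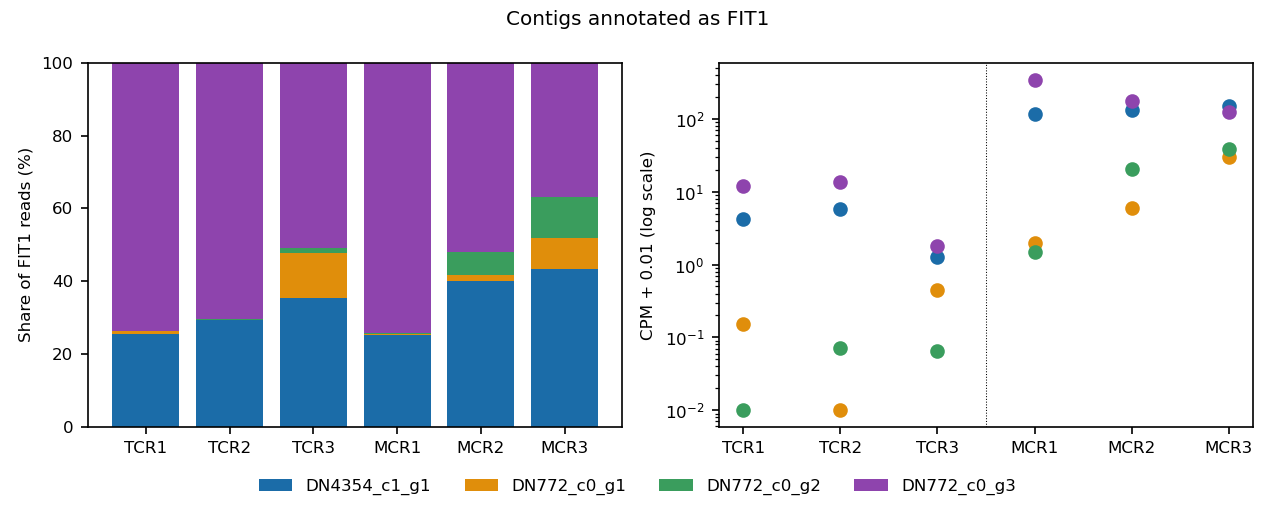
Left, share of the reads of the 4 FIT1 contigs (percent of their summed counts) in each library. Right, CPM of each contig with 0.01 added, on a log axis. The contigs DN772_c0_g1 and DN772_c0_g2 took little in MCR1 and were at 29.9 and 38.8 CPM in MCR3.

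Contigs of the members' own components gave a check on how far a pattern extends to neighbours in the assembly. There were 4, of which 3 passed the CPM minimum and 1, DN772_c0_g2, was called, against 8.39% of all contigs tested. DN3374_c0_g2, unannotated and in the component of NRAMP2, had 81, 101 and 58 counts in TCR and 90, 97 and 47 in MCR. Its log2 fold change was -0.01 ± 0.56 (adjusted p = 0.988), unlike the NRAMP2 contig beside it, and its sign changed with the scaling. Outside the components but in the same read clusters were 22 contigs, of which 14 were tested and 2 called. These were chosen after their values were seen. DN4354_c0_g1, unannotated, had 75, 126 and 15 counts in TCR and 2758, 1798 and 1527 in MCR and rose (log2 fold change 4.82 ± 0.82, adjusted p = 0.0158). Its ratio to DN772_c0_g3 stayed between 0.449 and 0.735 in the 6 libraries, so it followed the FIT1 contig of another read cluster. DN772_c1_g1, annotated as a heavy metal transport and detoxification protein, fell (log2 fold change -2.53 ± 0.35, adjusted p = 0.00843).

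The wider set of annotated potassium, iron and zinc contigs moved in both directions. Of 90 contigs found by their names, 15 (16.7%) rose in MCR, 11 (12.2%) fell and 64 did not pass, beside 10.2% and 31.7% of all annotated contigs. With the replicate block all 90 passed, 72 higher and 18 lower, but so did 99.0% of all annotated contigs and 35.5% of all contigs tested. The number that passed thus does not set the list apart. Its split by direction leaned further to MCR than that of all annotated contigs (53.0% higher and 46.0% lower), a difference that was not tested. Without TCR1 3 rose (KUP3, YSL8 and CAX3) and 2 fell (AGO10 and TSO2), without TCR2 ZIP4 was added to those that rose, and without MCR3 31 rose. Apart from the contigs just named, every call of this list was thus lost without TCR1 and without TCR2, also where this is not repeated below. The median log2 fold change was 4.09, against 1.90 over all annotated contigs and 0.57 over all contigs tested. Of the 90, 51 were uneven, and 2 of these were called. Uneven means that the lowest MCR library was under a fraction of 0.1 of the mean of the other two. The lowest MCR library of the uneven contigs was MCR3 in 30, MCR1 in 18 and MCR2 in 3. Ties went to the lower library number. Contigs with reads in MCR2 alone, such as DN5840_c2_g1 (0, 104 and 0 counts in MCR1 to MCR3), are therefore counted under MCR1. None of the 7 members was uneven, but their choice as higher in MCR in these libraries favoured this, so it is no result. The share of uneven contigs over all annotated contigs was not counted. Over the whole count table MCR3 had reads on 87361 contigs, against 119736 in MCR1 and 135523 in MCR2, although its total count was the largest. Low values in MCR3 are thus not particular to this list. The words used caught 14 contigs of another function, 10 of them thiolases among the potassium contigs, and without these 15 of 76 rose and 8 fell.

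**Figure D5:**
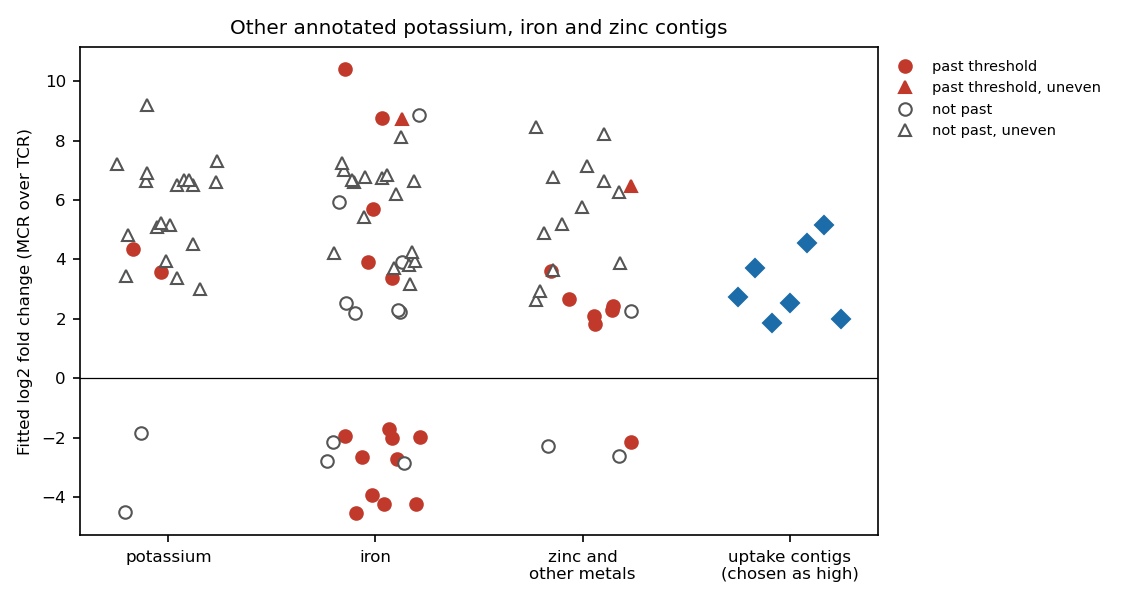
Fitted log2 fold change (MCR over TCR, vertical axis) of each annotated potassium, iron and zinc or other metal contig outside the members, with the 7 members (blue) beside them. Red symbols passed the threshold, open symbols did not, and triangles had 1 MCR library far below the others. Most contigs of the potassium list, which includes thiolases caught by their names, were open triangles, and iron contigs passed in both directions.

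In the potassium list 2 of 23 rose, none fell and 21 did not pass, with a median log2 fold change of 5.16. At an unadjusted p under 0.05, 12 were higher and 2 lower. These counts include the thiolases and FIP2, which are not potassium transporters. Without them 2 of 12 rose, with a median log2 fold change of 4.58. Of these 12, 8 were uneven, and at an unadjusted p under 0.05, 8 were higher and 2 lower. Besides the HAK5 contig DN5406_c0_g1, the one that rose was KUP3, a carrier of the HAK family. DN7314_c0_g2 was at 5.22, 5.03 and 8.11 CPM in TCR1 to TCR3 and at 135, 98.9 and 139 CPM in MCR1 to MCR3 (log2 fold change 4.34 ± 0.35, adjusted p = 0.00233). Its 3 MCR values were close together. SKOR, the channel that loads potassium into the xylem in Arabidopsis, was at 9.16 and 8.05 CPM in MCR1 and MCR2 and at 0 in MCR3 (adjusted p = 0.180), as were several low contigs of this list.

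Among 43 iron contigs, 6 rose, 10 fell and 27 did not pass. Partners of FIT were among those that rose. The bHLH38 contig DN2833_c0_g1 was at 2.50, 2.33 and 16.2 CPM in TCR and at 137, 84.3 and 99.0 CPM in MCR (log2 fold change 3.92 ± 0.83, adjusted p = 0.0325). A second, DN10226_c0_g2, was at 0.286, 0.490 and 0.708 CPM in TCR and at 6.11, 16.2 and 56.9 CPM in MCR (5.70 ± 0.96, adjusted p = 0.0157). Both contigs were above their TCR range in every MCR library. DN2833_c0_g1 did not pass without TCR1, TCR2, MCR1 or MCR2, with an adjusted p of up to 0.126. DN10226_c0_g2 did not pass without any 1 of the TCR libraries, with an adjusted p of up to 0.0973. A further bHLH38 pair did not pass, DN6696_c0_g1 with a log2 fold change of 2.18 ± 0.55 (adjusted p = 0.0559) and DN3150_c0_g1 with 2.52 ± 0.79 (adjusted p = 0.106). FRO2, the ferric chelate reductase that FIT controls in Arabidopsis, was listed at 6.49 CPM in MCR2 and 0 in the other 5 libraries (adjusted p = 0.197).

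Of 6 contigs of yellow stripe-like proteins, which carry metals bound to nicotianamine, 2 rose and 4 did not pass (adjusted p from 0.0504 to 0.183). YSL7, DN724_c0_g1, was at 40.2, 62.2 and 36.6 CPM in TCR and at 447, 822 and 184 CPM in MCR (log2 fold change 3.39 ± 0.58, adjusted p = 0.0166). It did not pass without any 1 of the TCR libraries, with an adjusted p of up to 0.109. YSL8, DN19002_c0_g1, had 2 counts over the TCR libraries, both in TCR3, and 3080 over the MCR libraries, a ratio of 1587 with a counting interval of 439 to 13110 (adjusted p = 0.00512). Its fitted log2 fold change was 10.40 with 6 libraries and 12.99 without TCR3, and it did not pass with limma-voom (adjusted p = 0.0571). Of 10 contigs of vacuolar iron transporters, 1 rose, 1 fell and 8 did not pass. The one that rose, DN130689_c0_g1, had no TCR read and 158 MCR reads, so it was at least 54.3-fold higher against a floor of 3 counts over the TCR libraries (adjusted p = 0.0173). It did not pass without TCR1, TCR2 or MCR1, with an adjusted p of up to 0.0785. The one that fell, DN5254_c0_g1, was at 20.8, 24.0 and 11.4 CPM in TCR and at 1.36, 0.748 and 1.58 CPM in MCR (log2 fold change -3.92 ± 0.53, adjusted p = 0.0082). NAS3, which makes nicotianamine, was at 709.9, 464 and 85.0 CPM in MCR1 to MCR3 and 42.2, 75.2 and 151 CPM in TCR1 to TCR3, groups that overlap (DN3131_c0_g1, adjusted p = 0.143).

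The iron contigs that fell included a storage protein and several transporters. OPT3, a transporter that loads iron into phloem in Arabidopsis, was at 744, 769 and 358 CPM in TCR and at 160.5, 160.2 and 142 CPM in MCR (DN1542_c0_g1, log2 fold change -2.02 ± 0.36, adjusted p = 0.0184). Ferritin FER4, an iron storage protein, was at 187, 163 and 93.0 CPM in TCR and at 6.92, 1.81 and 15.1 CPM in MCR (DN5025_c2_g1, -4.22 ± 0.77, adjusted p = 0.0198). OPT3 and FER4 did not pass without TCR1, TCR2 or MCR1, with an adjusted p of up to 0.113 and 0.0917. NRAMP6 was at 49.5, 46.8 and 14.8 CPM in TCR and at 9.43, 4.05 and 3.53 CPM in MCR (DN6575_c0_g2, -2.71 ± 0.61, adjusted p = 0.0398). It did not pass with limma-voom or without TCR1, TCR2, MCR2 or MCR3, with an adjusted p of up to 0.180. With 6 libraries and the quasi-likelihood test, NRAMP6 thus fell where the contig of its relative NRAMP2 was higher. AGO1, AGO10 and TSO2, which fell by 1.72, 4.23 and 4.53 on the log2 scale (adjusted p = 0.0236, 0.00271 and 0.00322), act in small RNA pathways and nucleotide synthesis and were caught only by words in their descriptions.

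In the list of zinc and other metals 7 of 24 rose, 1 fell and 16 did not pass. ZIP4, a zinc transporter of the family of the ZIP2 member, was at 9.59, 12.6 and 12.2 CPM in TCR and at 58.1, 55.9 and 54.5 CPM in MCR (DN184_c1_g1, log2 fold change 2.29 ± 0.27, adjusted p = 0.00579). Its spread within MCR was small. ZIP5 rose unevenly, from 1.65, 1.90 and 1.47 CPM to 51.2, 382 and 16.0 CPM (DN11196_c0_g1, 6.48 ± 1.26, adjusted p = 0.0237). It did not pass with limma-voom or without TCR1, TCR2 or TCR3, with an adjusted p of up to 0.130. ZIP3 was at 78.0 and 161 CPM in MCR1 and MCR2 but 0.304 CPM in MCR3, and did not pass (DN1490_c0_g1, adjusted p = 0.222).

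Of the other cation transporters of this list, 1 of 3 CAX contigs, 1 of 4 cation efflux contigs and 2 of 5 magnesium transporter contigs rose, and the rest of these did not pass. CAX3, a vacuolar proton-coupled cation exchanger, went from 16.0, 21.0 and 35.7 CPM to 294, 332 and 255 CPM (DN70_c0_g1, 3.60 ± 0.39, adjusted p = 0.00424). A cation efflux family contig went from 36.9, 42.7 and 41.6 CPM to 274, 217 and 159 CPM (DN382_c1_g1, 2.42 ± 0.30, adjusted p = 0.00645). The magnesium transporter MGT4 (DN3647_c0_g2, 2.10 ± 0.26, adjusted p = 0.0065) and a CorA-like contig (DN1763_c0_g1, 1.82 ± 0.43, adjusted p = 0.0465) made up the magnesium pair. The CorA-like contig did not pass with limma-voom, without scaling factors or without TCR1, TCR2 or TCR3, with an adjusted p of up to 0.194. It was also lost without both libraries numbered 3. The copper pump HMA5 did not pass (DN957_c0_g1, 2.26 ± 0.69, adjusted p = 0.0975). HMA6, a copper pump of the plastid envelope in Arabidopsis, fell by 2.14 ± 0.48 on the log2 scale (DN21757_c0_g1, adjusted p = 0.0388). It did not pass without TCR1, TCR2, MCR2 or MCR3, with an adjusted p of up to 0.193.

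For each member the 2 annotated contigs whose log2 levels had the highest Pearson r with it over the 6 libraries were found. They came from 3344 contigs with a mean of 10 CPM or more. Such an r takes no account of the level or of the size of a change. These correlations, over 6 points that share the split into root types, are a description, and between 10.2% (AKT1) and 17.9% (KAB1) of the 3344 correlated above 0.9 with a given member. KAB1 was most like the aquaporin PIP2;5, DN55284_c0_g1 (r = 0.9995), at 0.0716, 0.245 and 0.109 CPM in TCR and 29.05, 50.2 and 46.1 CPM in MCR. ZIP2 was most like ZIP4 (r = 0.998), a transporter of its own family. AKT1 was most like the cysteine protease RD21, DN4436_c1_g3 (r = 0.997), which had the same low MCR3 value, at 573, 755 and 294 CPM in MCR1 to MCR3. HAK5 was most like an FtsJ-like methyltransferase, DN7046_c0_g1 (r = 0.999), with MCR3 highest at 299 CPM. The nearest to the FIT1 contigs were DN5789_c0_g2, of unknown function (r = 0.994), and DN1389_c0_g2, related to a mitochondrial ATP synthase subunit (r = 0.999). NRAMP2 was nearest to DN15115_c0_g1, a protein with a domain of unknown function.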

How the data were processed

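Total RNA of 3 MCR and 3 TCR libraries was sequenced from poly(A) RNA with a stranded kit. The authors trimmed reads with Trimmomatic 0.39, assembled them with Trinity and estimated reads per contig with Salmon 1.9.0, per the labels and the study's methods, and deposited estimated counts without normalization. A second deposited table holds CPM that the authors normalized, used only for a check, and its 7819 contigs give the names. Its columns of log2 fold changes, p-values and q-values hold the authors' own comparison and were not used.

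The estimated counts were rounded to whole numbers. Those whose mean in at least 1 root type reached 0.4 CPM were kept (49813 tested, 134186 removed), normalized with TMM (factors 0.868 to 1.18) and tested with edgeR 4.0.16 in R 4.3.3 (quasi-likelihood test, Benjamini-Hochberg over all contigs tested). CPM in the text are on this scale. The standard error is the log2 fold change divided by the square root of F. The median log2 fold change over all contigs tested was 0.57 with TMM, 0.84 with RLE and 0.37 without scaling factors. Of the contigs called, 28.6% were higher in MCR, 39.8% with RLE and 19.8% without factors.

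The members, lists and tests were chosen with earlier results of these data known. Contigs named are the members, component neighbours at 1 CPM or above, annotated contigs of the same Arabidopsis genes, up to 6 called contigs per list and direction with the highest mean CPM, and the 2 contigs most like each member (r on log2 of CPM with 0.5 added). Some others, named for their function or after their values were seen, are SKOR, FRO2, NAS3, ZIP3, HMA5, DN5254_c0_g1, DN6696_c0_g1, DN3150_c0_g1, DN4354_c0_g1 and DN772_c1_g1.

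Libraries of the same number were checked for pairing, the numbers coming from the titles alone. Over 14706 contigs the correlation of deviations from the root type means was 0.336, 0.363 and 0.477 for numbers 1, 2 and 3. Of unlike numbers, TCR2 with MCR1 was at 0.316 and TCR1 with MCR2 at 0.185. Pairs of a library numbered 3 with an unlike number were between -0.502 and -0.295. The values thus set the libraries numbered 3 apart and do not settle whether equal numbers are paired. The blocked fit is given beside results it changes. Scripts were tested on simulated data, in which 200 contigs were given a log2 fold change of 3 in either direction. The quasi-likelihood test, with every simulated contig with a read kept, called 62 of these (31%), all in the right direction. It also called 3 unchanged contigs. A contig that did not pass is thus not shown to be unchanged. Alternatives were the block, leaving out each library, other filters, RLE or no scaling factors, DESeq2 1.42.0, limma-voom (limma 3.58.1), edgeR's exact test and dropping the fold-change minimum.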

Additional observations from a re-analysis of the deposited data

How the results depend on the processing

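The calls of the 7 uptake contigs were set by their choice on these libraries, so how often they recur says nothing about stability. With 1 library left out the number past the threshold ran from 3 (without TCR1) to 7, with 4 without TCR2 and 6 each without MCR1 or MCR2, where AKT1 was the one lost. Such fits have 2 libraries in 1 root type and so less power.

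The number of potassium, iron and zinc contigs that rose, 15 with 6 libraries, was 72 when every contig with a read was tested, 26 with the edgeR exact test, 38 with DESeq2, 72 with the replicate block and 43 without both libraries numbered 3, a setting chosen after seeing the data. It ran from 3 (without TCR1) to 31 (without MCR3) with 1 library left out. The number that fell, 11, was 18 when every contig with a read was tested, 18 with the replicate block and 18 without both libraries numbered 3, and ran from 2 (without TCR1 or TCR2) to 12 (without MCR3). Over all contigs the number called, 4177, was 9240, 6552, 9293, 17704 and 15868 in the order of the first 5 settings, and ran from 535 (without TCR1) to 7460 (without MCR3), with 651 without TCR2, 2593 without MCR1 and 2426 without MCR2. Of the same-component contigs 1 was called, 2 when every contig with a read was tested, with filterByExpr, a CPM minimum in at least 3 libraries, the exact test, DESeq2, the replicate block or without both libraries numbered 3, and 0 with limma-voom. With 1 library left out it ran from 0, without any 1 of the TCR libraries, to 1. The cause of these shifts was not tested.

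DN3374_c0_g2, which did not pass under any alternative, changed sign to a log2 fold change of 0.31 with a CPM minimum in at least 3 libraries, 0.38 with filterByExpr, 0.29 with RLE size factors and 0.29 with DESeq2, and to between 0.10 and 0.18 without TCR1 (0.095), TCR2 (0.15), MCR1 (0.11), MCR2 (0.12) or MCR3 (0.18), and was -0.22 without TCR3. DN896_c0_g1 (HAK5) passed in 3 of 16 alternatives and DN5406_c0_g1 (HAK5) in 14. With 3 libraries of each root type and unknown contig lengths, contigs matched to the same gene cannot be ranked by level. Uncalled contigs, including those of under a few CPM, are not thereby shown to be unchanged.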
